A study of Mus musculus with 248 samples.

Results

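Car1, Blvrb and Hbb-bt are genes of the red blood cell lineage that were listed among sorted hematopoietic stem cells (HSCs) of C57Bl6 mice. They were chosen by name because the authors' deposited tables list them both in the comparison of cells with low and high mitochondrial membrane potential (MMP) and in the comparison of cell clusters A to E. These 3 genes stand among 3494 genes that appear in either table, 1868 in the MMP table and 2887 in the cluster table. MMP is the charge difference that mitochondria keep across their inner membrane. The groups were MMP-low and MMP-high cells, both sorted by the stem cell surface profile (lineage markers and CD48 negative, Sca1, cKit and CD150 positive), with no treatment and no altered gene named and no age, sex or animal given. Single cells were captured on a Fluidigm C1 chip, inspected, and sequenced, giving 122 MMP-low and 126 MMP-high libraries. With no animal or sort named, each group counted as 1 sample, so that no difference below has a replicate check and none was tested anew. The Y chromosome gene Eif2s3y was found in 89.5% of MMP-low cells, against 12.6% of MMP-high cells by the authors' deposited table. Ddx3y and Uty, also of the Y chromosome, were listed toward MMP-low too. Xist, of the X chromosome, was listed toward MMP-high with a log fold change of 0.63. It was found in 96.2% of MMP-low cells, against 100% of MMP-high cells by the authors' deposited table, so nearly all cells of both groups held it. The part of sex or animal in the differences below was not tested.

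Red blood cells carry oxygen on hemoglobin, which joins globin chains to the iron compound heme. Heme is made in a chain of enzyme steps that begins and ends in mitochondria, and surplus heme is opened to biliverdin, a step that frees the iron, and biliverdin is reduced to bilirubin. Stem cells hold little of this program, and part of it is first switched on in progenitors on the way to red cells. Hbb-bt encodes an adult beta-globin chain. Blvrb encodes biliverdin reductase B, an enzyme that uses NADPH to reduce flavins and some biliverdin forms. Car1 encodes carbonic anhydrase 1, a zinc enzyme that interconverts carbon dioxide and bicarbonate, and it is known as an early gene of mouse erythroid progenitors.

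The genes lie at separate places, apart from a second beta-globin gene beside Hbb-bt. In the GENCODE annotation of GRCm38, the assembly also called mm10 that the submitters' processing notes name, Car1 spans chromosome 3 from 14766216 to 14808368 on the minus strand, with 7 exons in its first listed transcript. Blvrb spans chromosome 7 from 27447978 to 27466144 on the plus strand, with 5 exons. Hbb-bt spans chromosome 7 from 103812524 to 103813996 on the minus strand, with 3 exons, and Hbb-bs, the other adult beta-globin gene of this strain, lies 12537 bases away on the same strand. The only annotated gene that overlaps any of the 3 is Gm16399, a processed pseudogene of 219 bases on the strand of Car1, which shares 0 bases with Car1 exons.

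Hbb-bt and Hbb-bs are near-identical in the part that codes for protein, which is why a stretch of each is shown. Their reading frames of 444 bases differ at 1 position, an identity of 99.8%. The stretch below covers bases 397 to 437 of the reading frame, counted from the first base of the start codon, and the capital marks the position that differs.
Hbb-bt: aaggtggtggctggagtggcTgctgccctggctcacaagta
Hbb-bs: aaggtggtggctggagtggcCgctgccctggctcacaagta
Reads were 100 bases long per the labels, and 54.8% of the 604 windows of that length in the Hbb-bt transcript occur unchanged in the Hbb-bs transcript. With up to 2 mismatches the share was 61.4%. The labels and files do not say how reads that match both genes were counted, and the values of Hbb-bt are uncertain in this respect.

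The windows before the start sites are shown because Hbb-bt, Hbb-bs and Blvrb were all listed as higher in cluster A. RefSeq windows on GRCm38.p6 were matched by symbol for Blvrb and Hbb-bt, 2 of the 3 genes, and for Hbb-bs. The RefSeq starts of the globin genes differ from the GENCODE ones. In GENCODE, Hbb-bt starts at 103813996 and Hbb-bs at 103828096, so that part of each globin window lies within the GENCODE gene. Capitals mark matches, on either strand, of GATAA, the core bound by GATA factors, of CACCC, a box bound by Kruppel-like factors, of the promoter boxes CCAAT and, nearer the start, TATAAA, and of the GC box CCGCCC. The 250 bases before each RefSeq start read, from 5′ to 3′ on the strand of the gene:
Hbb-bt, chr7:103813924-103814173, minus strand: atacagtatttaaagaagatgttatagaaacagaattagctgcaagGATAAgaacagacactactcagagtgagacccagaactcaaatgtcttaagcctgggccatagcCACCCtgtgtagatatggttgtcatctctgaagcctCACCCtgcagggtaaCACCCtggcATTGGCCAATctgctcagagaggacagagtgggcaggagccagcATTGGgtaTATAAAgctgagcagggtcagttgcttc
Hbb-bs, chr7:103827929-103828178, minus strand: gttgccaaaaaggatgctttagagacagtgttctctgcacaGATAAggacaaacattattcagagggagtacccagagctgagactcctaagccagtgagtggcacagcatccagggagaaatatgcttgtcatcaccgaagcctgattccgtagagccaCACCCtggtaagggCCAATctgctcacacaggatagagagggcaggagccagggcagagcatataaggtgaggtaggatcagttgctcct
Blvrb, chr7:27447728-27447977, plus strand: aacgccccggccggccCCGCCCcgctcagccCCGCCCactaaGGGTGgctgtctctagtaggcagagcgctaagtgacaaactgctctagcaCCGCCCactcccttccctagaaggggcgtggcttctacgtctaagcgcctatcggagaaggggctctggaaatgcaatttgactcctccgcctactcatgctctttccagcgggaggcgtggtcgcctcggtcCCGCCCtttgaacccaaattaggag

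The globin windows and the Blvrb window hold different letters. Hbb-bt had 1 GATAA at position -204 from the RefSeq start, 3 CACCC, 3 CCAAT and 1 TATAAA at position -28. Hbb-bs had 1 GATAA, 1 CACCC and 1 CCAAT. In the Hbb-bt window, 2 of the CCAAT matches lie end to end, on opposite strands. The Blvrb window had 4 CCGCCC and 1 CACCC, and 0 matches of the other motifs searched. Its GC content was 62%, against 47.2% for Hbb-bt and a median of 52.4% over all windows. Among 32817 windows of the same length, 22.6% held GATAA, 52% CACCC, 33.8% CCAAT, 12.4% TATAAA and 32.7% CCGCCC, so that CACCC alone is common to more windows than not. A second start site of Blvrb in the same RefSeq table had 1 CACCC and 0 of the other motifs.

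In the MMP groups, all 3 genes were listed on the side of MMP-low cells, each with its own shape of difference, and these values are part of what chose the genes. Listing by the authors called 5.86% of 16203 genes as higher in MMP-low, and nothing is read from the 3 genes against it. Car1 was found in 59% of MMP-low cells, against 25.2% of MMP-high cells by the authors' deposited table. Blvrb was found in 88.6% of MMP-low cells, against 84% of MMP-high cells per the authors' deposited table. Hbb-bt was found in 71.4% of MMP-low cells, against 58.8% of MMP-high cells by the authors' deposited table. Transcripts of all 3 were thus found in cells of both groups, Blvrb in most cells of either and Car1 in a minority of MMP-high cells. How many cells stand behind these percentages is not stated, so that no interval is given.

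**Figure D1:**
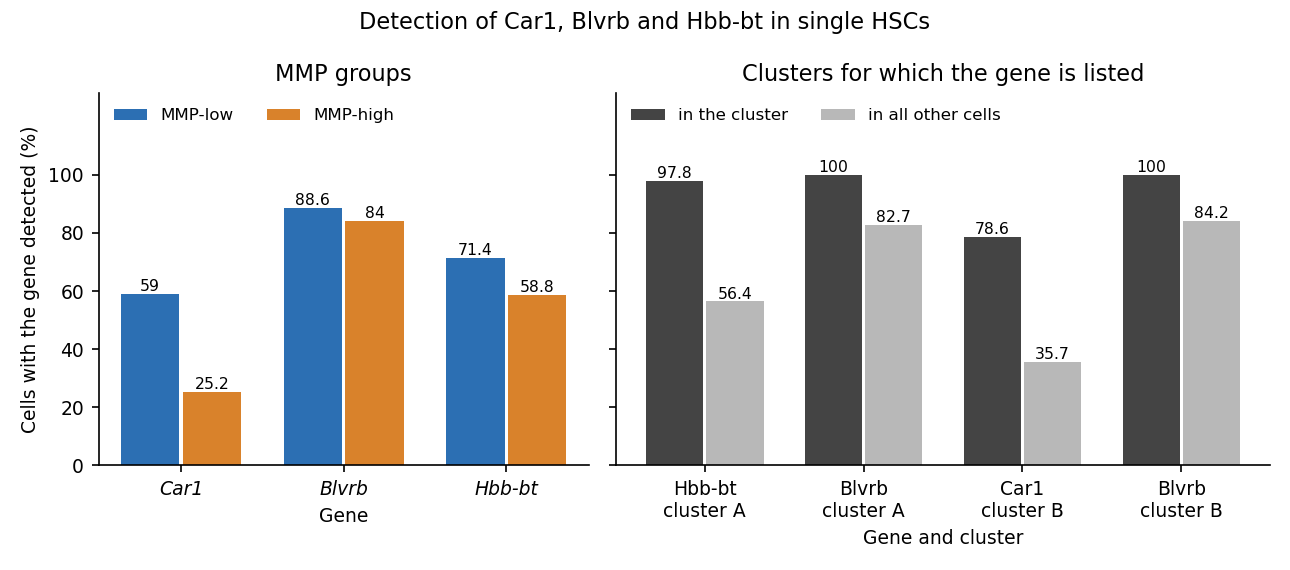
Percentage of single cells in which Car1, Blvrb or Hbb-bt was detected per the authors' deposited tables, for MMP-low and MMP-high cells (left panel) and for a cluster and the other cells (right panel, the 4 listings of these genes). Each bar is 1 deposited value without an error; Car1 shows 59% against 25.2% in the MMP groups, while Blvrb stands at 82.7% or above in every bar.

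The order of the genes by fold was not their order by detection. Blvrb had the largest log fold change of the 3 toward MMP-low, 0.50 per the authors' deposited table, with the smallest difference in detection, 4.6 percentage points. Car1 had a log fold change of 0.45 by the authors' deposited table and a difference in detection of 33.8 points. Hbb-bt had a log fold change of 0.32 per the authors' deposited table and a difference of 12.6 points. The fold of Blvrb thus stood beside near-equal detection, and that of Car1 beside a wide gap in detection. The file does not state the log base. Read as natural logs, the folds by the authors' deposited table were 1.57 for Car1, 1.65 for Blvrb and 1.38 for Hbb-bt, and read as base 2 they were 1.37, 1.41 and 1.25. The adjusted p per the authors' deposited table was 2.22e-05 for Car1, 0.0207 for Blvrb and 0.723 for Hbb-bt. These p-values come from a model of single cells, named as MAST in the file, and with no animal given they are not read as a spread between animals. Hbb-bt missed the threshold of 0.05, which 539 genes, or 3.33% of those tested, passed as higher in MMP-low.

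None of the 3 was near the top of the MMP-low genes. By fold, Blvrb ranked 198, Car1 264 and Hbb-bt 605 of the 949 genes that the authors' deposited table lists as higher in MMP-low, and the median log fold change of these 949 was 0.36. By the difference in detection, Car1 ranked 265, Hbb-bt 450 and Blvrb 646 by the authors' deposited table, where the median difference was 11.5 points. A difference under 5 points was found for 318 of the 949 genes, so the small gap of Blvrb was a frequent pattern in this list.

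**Figure D2:**
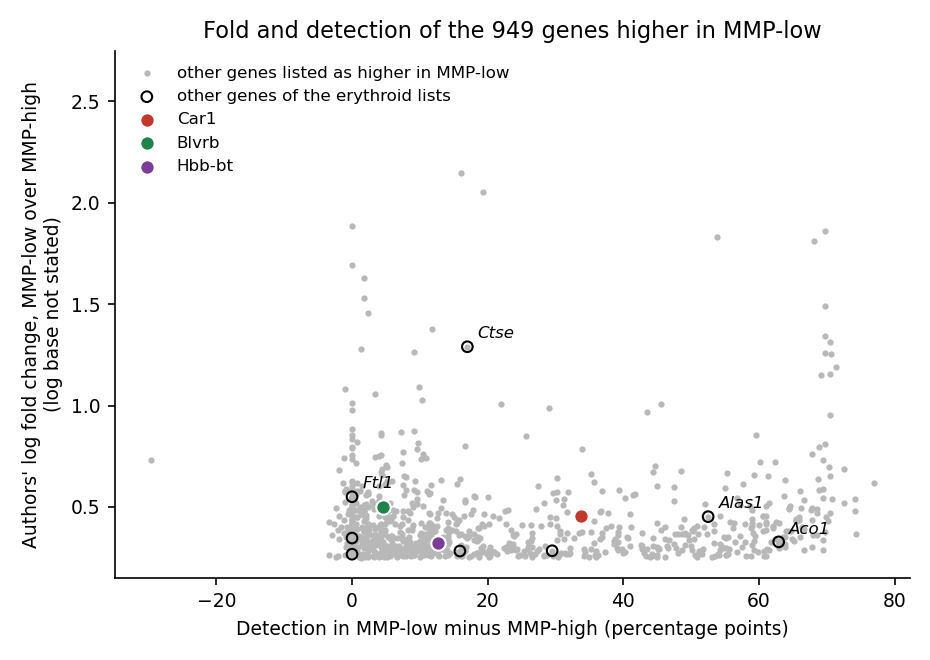
Each point is a gene listed as higher in MMP-low per the authors' deposited table, with the difference in detection (MMP-low minus MMP-high, percentage points) across and the authors' log fold change upward; coloured points are Car1, Blvrb and Hbb-bt, and open circles other genes of the erythroid lists. Car1 lies to the right at 33.8 points, Blvrb to the left at 4.6 points with a fold of 0.50, and Hbb-bt near the lower edge at 0.32.

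Genes with the most similar detection in the MMP groups were sought by the distance between their pairs of percentages. For Car1 these were Capn10, a calpain protease, at 58.1% of MMP-low cells against 26.1% of MMP-high cells, Zfp783 at 61% and 26.1%, and Gimap4 at 55.2% and 26.9% by the authors' deposited table. Blvrb was closest to Rnf115, a ubiquitin ligase, with 88.6% of MMP-low cells against 83.2% of MMP-high cells per the authors' deposited table, then to the clock gene Per1 and to Trappc9. Hbb-bt had the same pair of percentages as Hip1r, 71.4% in MMP-low and 58.8% in MMP-high by the authors' deposited table, followed by Carhsp1 and Zfp975. None of these 9 genes belongs to the erythroid lists. The likeness rests on 2 percentages per gene, and the log fold changes of Capn10, Zfp783 and Gimap4, from 0.25 to 0.27, were all below the 0.45 of Car1 per the authors' deposited table.

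Between the clusters the genes parted. Hbb-bt was listed for cluster A alone, Car1 for cluster B alone, and Blvrb for both A and B, with 0 listings of the 3 in clusters C, D and E. Listing called 5.27% of genes for cluster A, 4.16% for B, 5.12% for C, 3.23% for D and 2.8% for E. Nothing is read from the 0 listings of 3 genes against these shares. Since every gene of the clustered cells could help to form the clusters, nothing is tested here. A gene that is not listed for a cluster has no value there by the authors' deposited table, where the lowest log fold change listed was 0.25 and the highest p 0.00997. The file names only the cluster in which a gene is higher, and its second percentage is read as that of all other cells.

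Hbb-bt was detected in 97.8% of cluster A cells and in 56.4% of the other cells per the authors' deposited table. Its log fold change there was 0.55 with an adjusted p of 3.11e-09 by the authors' deposited table, the smallest of the 4 listings. Hbb-bs, the near-identical neighbour, was listed for cluster A alone too, with detection in 93.3% of cluster A cells and 50.3% of the others and a log fold change of 0.40 per the authors' deposited table. Hbb-bs was not listed between the MMP groups. Whether shared reads link the values of Hbb-bt and Hbb-bs was not tested.

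Blvrb reached full detection in both clusters for which it was listed. In cluster A the share was 100%, against 82.7% of the other cells, with a log fold change of 0.42 and an adjusted p of 1.09e-05 by the authors' deposited table. For cluster B it was 100%, against 84.2% of the other cells, with a log fold change of 0.60 and an adjusted p of 0.737 per the authors' deposited table. Full detection was frequent among listed genes, at 50.4% of the 854 genes of cluster A and 35.5% of the 674 genes of cluster B by the authors' deposited table. The larger fold thus stood beside the larger p, and cluster sizes are not stated in the table.

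Car1 was detected in 78.6% of cluster B cells and in 35.7% of the other cells per the authors' deposited table. Its log fold change of 0.81 by the authors' deposited table was the largest of the 4 listings, with an adjusted p of 0.265. At an adjusted p under 0.05, 4.05% of genes passed for cluster A and 1.64% for cluster B. Hbb-bt and Blvrb passed for A, and neither Car1 nor Blvrb passed for B. By fold, Car1 ranked 58 and Blvrb 134 of the 674 genes of cluster B, and Hbb-bt ranked 63 and Blvrb 218 of the 854 genes of cluster A per the authors' deposited table. The median log fold changes of all genes listed were 0.40 for B and 0.33 for A, so that the same fold meant a different place in each.

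**Figure D3:**
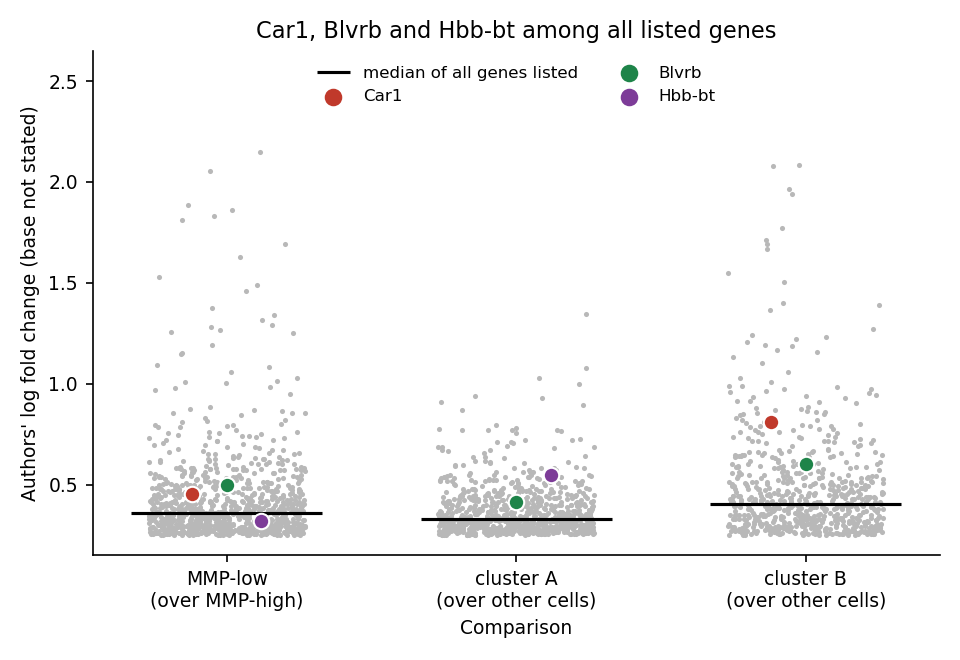
Authors' log fold change (upward, base not stated) of every gene listed as higher in MMP-low, in cluster A and in cluster B, 1 grey point per gene with random sideways spread, the median as a line, and Car1, Blvrb and Hbb-bt in colour. Hbb-bt lies below the median in MMP-low (0.32 against 0.36) and above it in cluster A (0.55 against 0.33), and Car1 lies highest of the 3 in cluster B at 0.81.

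Genes of like fold in the same cluster were of other kinds. Around Hbb-bt in cluster A stood Necap1 and Cstf1, both detected in 100% of cluster A cells and with a log fold change of 0.55 by the authors' deposited table. Around Blvrb in cluster A stood Atp6ap2, an accessory protein of the vacuolar ATPase, with Glipr2 and Eps8, and in cluster B Zbtb1, Hras and Prkcq. Next to Car1 in cluster B stood Lgals3, the galactose-binding protein galectin-3, with Lyst and Kctd20. The log fold change of Lgals3 was 0.80, with detection in 100% of cluster B cells and 23.5% of the others per the authors' deposited table.

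The wider erythroid program was listed in part and on both sides. Of the genes in 7 erythroid lists, 11 were listed toward MMP-low and 6 toward MMP-high by the authors' deposited table, where listing called 5.86% and 5.67% of all genes. At an adjusted p under 0.05 the numbers were 8 and 2, where 3.33% and 3.69% of all genes passed. Without Car1, Blvrb and Hbb-bt, 8 and 6 of the others were listed. The median log fold change, signed so that positive is higher in MMP-low, was 0.28 over the 17 listed genes and 0.25 over all listed genes. A further 16 genes were listed for clusters alone. Over all genes, 1626 of the 16203 tested were listed for clusters alone, and 3494 were listed in at least 1 comparison. Of the erythroid genes, 33 were listed in at least 1 comparison and 86 were in neither table. The 17, 16 and 86 genes together make up the 7 lists, and this total also stands behind the counts per cluster given below. Among the genes in neither were Hba-a1 and Hba-a2 (the alpha-globins), Alas2 (the erythroid form of the first heme enzyme), Epor (the erythropoietin receptor), Slc4a1 (a protein of the red cell membrane), Ahsp and Gata1, and whether they were detected is not shown by the tables.

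Among globins, Hbb-bt and Hbb-bs were the 2 of 12 genes listed at all. Of 16 carbonic anhydrases, Car1 was the 1 listed. Over all genes, 3494 of the 16203 tested were listed in at least 1 comparison, and nothing is read from these small counts. In heme synthesis, Alas1, the form of the first enzyme found in all tissues, was found in 67.6% of MMP-low cells, against 15.1% of MMP-high cells, with a log fold change of 0.45 and an adjusted p of 4.34e-13 per the authors' deposited table. Alas1 was also listed for clusters A and B, at 0.37 and 0.50 by the authors' deposited table. Cpox, a later enzyme of the pathway, had the cluster pattern of Blvrb, listed for A at 0.31 and for B at 0.40 per the authors' deposited table, both with an adjusted p under 0.05, and at 0.28 toward MMP-low with an adjusted p of 0.534. Slc25a37, the mitochondrial iron importer mitoferrin, stood on the other side, found in 25.7% of MMP-low cells, against 71.4% of MMP-high cells, and listed for cluster D by the authors' deposited table. Of 14 heme synthesis genes, 2 were listed toward MMP-low and 1 toward MMP-high, where listing called 5.86% and 5.67% of all genes.

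In heme breakdown and iron handling, the field of Blvrb, genes were listed on both sides. Of 19 such genes, 5 (with Blvrb itself) stood on the side of MMP-low and 2 on that of MMP-high by the authors' deposited table, and 10 were in neither gene table. At an adjusted p under 0.05 the numbers were 5 and 0. Over all genes, listing called 5.86% toward MMP-low and 5.67% toward MMP-high, and 3.33% and 3.69% passed that threshold. Ftl1 and Fth1, the ferritin chains that store iron, were detected in 100% of cells of both groups, with log fold changes of 0.55 and 0.27 per the authors' deposited table. Like Blvrb, Ftl1 was listed for clusters A and B, at 0.36 and 0.45 by the authors' deposited table, the listing for B with an adjusted p of 1. Aco1, an iron-sensing protein that binds ferritin and transferrin receptor messages, was found in 70.5% of MMP-low cells, against 7.6% of MMP-high cells per the authors' deposited table. Flvcr1, a heme exporter, was found in 72.4% of MMP-low cells, against 42.9% of MMP-high cells by the authors' deposited table, and both Aco1 and Flvcr1 were listed for cluster A. The iron chaperone Pcbp1 and the ferritin receptor Ncoa4 had log fold changes of 0.29 each toward MMP-high with adjusted p of 1 per the authors' deposited table. Tfr2 was listed for cluster E and the heme transporter Slc48a1 for cluster A, neither with an adjusted p under 0.05.

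**Figure D4:**
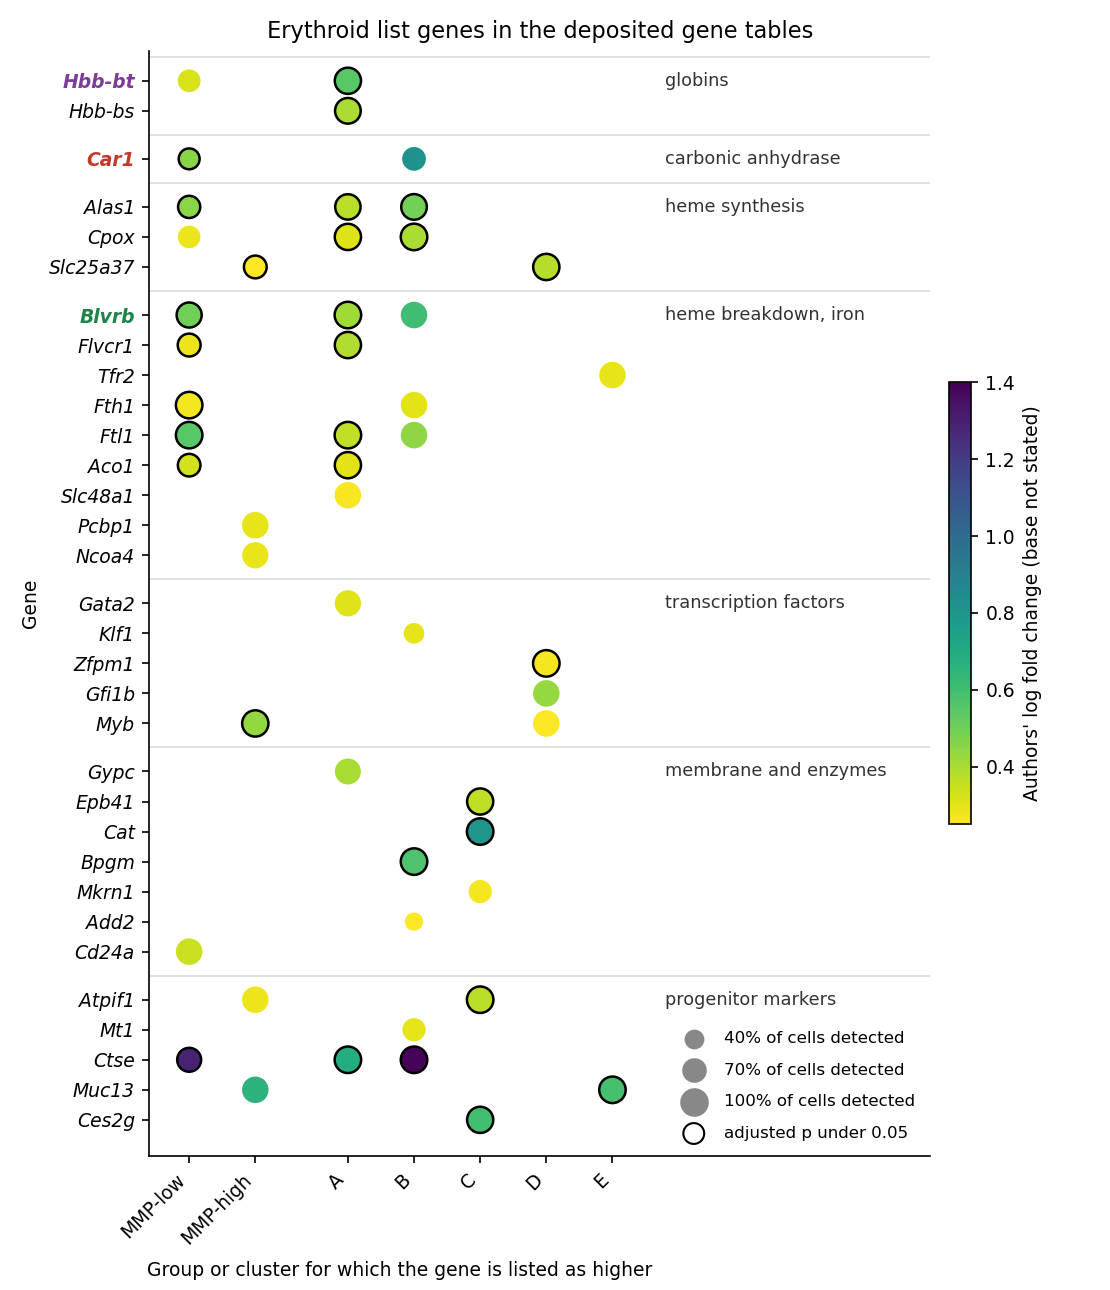
Genes of the erythroid lists (rows) that the authors' deposited tables list as higher in MMP-low, MMP-high or clusters A to E (columns); dot size is the percentage of cells of that group or cluster in which the gene was detected, colour the authors' log fold change, and a black rim marks an adjusted p under 0.05. Car1 is marked for MMP-low and B, Blvrb for MMP-low, A and B, and Hbb-bt for MMP-low and A; an empty place means that the gene was not listed there, and 1 listed gene is not shown.

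Of 14 erythroid transcription factors, 0 were listed toward MMP-low and 1, Myb, toward MMP-high, with a log fold change of 0.44 by the authors' deposited table. Over all genes, listing called 5.86% toward MMP-low and 5.67% toward MMP-high, so that these counts are near the background. Klf1, the factor that drives beta-globin transcription, was listed for cluster B as Car1 was, detected in 57.1% of its cells and 23% of the others with an adjusted p of 1 per the authors' deposited table. Gata2 was listed for cluster A with an adjusted p of 1, and Zfpm1, Gfi1b and Myb were listed for cluster D by the authors' deposited table. Of these, Zfpm1, a cofactor of GATA factors, had an adjusted p of 0.00322 per the authors' deposited table. Of 32 membrane, surface and enzyme genes, Cd24a was the 1 listed between the MMP groups, with an adjusted p of 1 by the authors' deposited table. In the clusters, Bpgm, which makes the small molecule that loosens oxygen from hemoglobin, was listed for B at 0.57, Cat (catalase) and Epb41 for C at 0.79 and 0.36, all with an adjusted p under 0.05 per the authors' deposited table. By the authors' deposited table, Add2 (B), Gypc (A) and Mkrn1 (C) were listed with an adjusted p of 1.

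The list of erythroid progenitor markers had 5 of 27 members on the side of MMP-low and 2 on that of MMP-high by the authors' deposited table. Over all genes, listing called 5.86% toward MMP-low and 5.67% toward MMP-high. Car1, Blvrb and Hbb-bt, which were chosen because they were listed, are 3 of those 5. Ctse, the protease cathepsin E, had a log fold change of 1.29 toward MMP-low, ranking 15 of 949, and was listed for clusters A and B at 0.69 and 1.39 per the authors' deposited table. Ces2g, a carboxylesterase, was listed for cluster C at 0.60, with detection in 97.1% of its cells and 19.9% of the others per the authors' deposited table. Muc13 and Atpif1 were listed toward MMP-high with adjusted p of 1 and 0.102 by the authors' deposited table. Per cluster, this list had 4 members in A, 7 in B, 2 in C, 1 in D and 1 in E. At an adjusted p under 0.05 its numbers were 4 in A, 2 in B, 2 in C, 1 in D and 1 in E. Over all erythroid lists the numbers were 12 in A, 11 in B, 5 in C, 4 in D and 3 in E, where listing called 5.27%, 4.16%, 5.12%, 3.23% and 2.8% of all genes. At an adjusted p under 0.05 they were 9, 4, 4, 2 and 1, where 4.05%, 1.64%, 3.07%, 1.86% and 1.12% of all genes passed.

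Markers of other blood cells stood beside Car1, Blvrb and Hbb-bt in the same comparisons. Of 24 markers of granulocytes, monocytes and macrophages, 14 were listed toward MMP-low and 2 toward MMP-high, and 7 were listed for cluster A and 12 for cluster B per the authors' deposited table. Of all genes, 5.86% and 5.67% were listed toward MMP-low and MMP-high, and 5.27% and 4.16% for clusters A and B. Ltf, a neutrophil granule protein, was found in 100% of MMP-low cells, against 30.3% of MMP-high cells by the authors' deposited table. Of 17 lymphoid markers, 7 were listed toward MMP-low and 1 toward MMP-high, with 1 in cluster A and 5 in cluster B, against the same shares of all genes. Ighm, Igkc, Igll1 and Cd79a were each found in between 61% and 70.5% of MMP-low cells, against 0% of MMP-high cells per the authors' deposited table. Of 10 markers of mast cells, eosinophils and basophils, 0 were listed. Summed levels cannot be had from these tables, and the part of other cell types in the values of the 3 genes was not tested. Of the sorting markers, Ly6a, which encodes Sca1, was detected in 100% of cells of both groups. Its log fold change was 0.83 toward MMP-low by the authors' deposited table. Slamf1, which encodes CD150, was found in 76.2% of MMP-low cells, against 28.6% of MMP-high cells by the authors' deposited table.

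Quality values of the libraries also moved with the groups. Over all libraries, the median number of genes detected per library was 2316.5 in MMP-low and 3795.5 in MMP-high. Car1, Blvrb and Hbb-bt were each detected in a larger share of MMP-low cells. Whether those shares cover all of these libraries is not stated. The median share of reads in introns was 42.7% in MMP-low and 34.2% in MMP-high, and the median expression profiling efficiency, a quality value of the authors, 18.3% and 31.3%. Median total reads were closer, at 1620811 in MMP-low and 1816108 in MMP-high, as were median mapped reads, at 508337.5 and 568088.5. Among libraries with more than 600000 mapped reads, the medians were 2556 genes in 42 MMP-low and 3842 genes in 61 MMP-high libraries. Total reads ran from 678723 to 5074155 in MMP-low and from 949570 to 4308287 in MMP-high. The order of the groups in genes detected was the other way round among libraries numbered above 85, with medians of 2083 in 37 MMP-low and 1905 in 41 MMP-high libraries. The tables give no value of the 3 genes within a set of libraries, and the part of depth and library quality in their detection was not tested.

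Other deposited lists held the genes unevenly. Car1 was among the 5624 genes that the authors listed as highly variable, and Blvrb and Hbb-bt were not, nor was Hbb-bs. Such genes made up 57.2% of the genes in the cluster table. Hbb-bt was in the list of 99 genes that the authors headed as shared by MMP-low and dHSC, a label that the files do not spell out, as were Alas1, Ftl1 and Ctse, and neither Car1 nor Blvrb was in it. The title of that list asks for an adjusted p under 0.05, which 92 of the 99 genes had in the authors' deposited MMP table, and Hbb-bt was among the 7 that did not. Blvrb was named in the authors' deposited enrichment table among 61 genes higher in MMP-low that are GATA1 targets in a public binding collection, with Cpox and Fth1, at an adjusted p of 0.00216 for that term of 807 genes. It was also named among 71 targets of NFE2L2, a factor of the oxidative stress response, with Fth1 and Flvcr1, at an adjusted p of 0.00401 per the authors' deposited table. A longer term of 1790 CTCF targets named Blvrb too, at an adjusted p of 0.00374 in that table of the authors. Car1 and Hbb-bt were named in 0 of the 21 terms given there for MMP-low.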

How the data were processed

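Tools named per the submitters' processing notes were STAR 2.5.2b and bcl2fastq 2.17.1.14, with the build mm10. Libraries used SMART-Seq v4 and Nextera XT, per the labels' protocols, without molecular identifiers. Log fold changes were deposited by the authors as averages on a log scale of unstated base, taken as natural log for the unit check. The authors gave detection as the fraction of cells with the gene, turned here into percent. Per gene, the authors' model over single cells (MAST for the MMP table, per the file headers) gave a p-value, deposited with an adjusted value that is p times 16203. Listing by the authors stopped at a log fold change of 0.25. Counts of reads and of detected genes per library were made by the authors and deposited as such.

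The members and gene lists were chosen with earlier results of these data known. Named genes are the 3 members, the 3 genes nearest to each in detection or in fold within a cluster, listed genes of the erythroid lists, and leading genes of other lists. Some genes that this rule names are not reported here. Ranks, distances, motif matches and read-length windows were computed with Python 3.11.15, pandas 2.3.3 and Biopython 1.88, the first 3 steps after tests on simulated data. Depth ran from 678723 to 5074155 reads per library. Alternatives were the log base, ranking by detection, stricter p thresholds, lists without predicted genes or other markers, and library subsets. Normalization and cluster building are not described in the sources used here.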

Additional observations from a re-analysis of the deposited data

How the results depend on the processing

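No paired analysis was possible because the result comes from no test of samples: the numbers in the titles name cells, and each group is 1 sample. For the same reason no sample could be left out. Of 53 recomputed values, 38 were counted as kept, by direction, by size within 1.5 times or by side of the threshold. Some of these could not change, such as the direction of a fold under another log base. Ratios and differences of detection were judged by direction alone. In the authors' deposited cluster table, a threshold of 0.05 on the adjusted p left out Car1 (log fold change 0.81, adjusted p 0.265) and Blvrb (0.60, adjusted p 0.737) in cluster B. Ranking by difference in detection in place of fold put Blvrb at 646 in MMP-low, 519 in cluster A and 580 in cluster B, Car1 at 205 in cluster B and Hbb-bt at 226 in cluster A. Ranking by detection moved Car1 and Hbb-bt in MMP-low by less than 1.5 times. The erythroid lists held 2 genes toward MMP-high at an adjusted p under 0.05 and under 0.01, and 7 toward MMP-low under 0.01. At 0.05 they held 4 genes for cluster B, 2 for D and 1 for E. Fewer genes of any kind passed these thresholds too, and the cause of these changes was not tested. The difference in median genes detected, MMP-low minus MMP-high, was -1479 over all libraries and 178 in those numbered above 85, and for mapped reads -59751 and 109964; the cause was not tested. Rank among genes with an adjusted p under 0.05 was not run for Hbb-bt, which does not pass. Detection was not given by depth, and with no stated cell numbers it has no interval.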

Other observations

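A list of genes for flavin, NADPH and other redox steps was listed in part, NADPH being the electron donor of Blvrb. G6pdx, which makes NADPH in the pentose phosphate pathway, was found in 85.7% of MMP-low cells, against 79.8% of MMP-high cells, with a log fold change of 0.63 and an adjusted p of 0.000927 by the authors' deposited table. It was also listed for clusters A and B at 0.36 and 0.93 per the authors' deposited table, the listing for B with an adjusted p of 0.783. Blvrb and G6pdx were thus listed in the same 3 places, with the larger fold in B and the smaller p in A for each. Alas1, Cpox, Ftl1 and Ctse had this pattern too, so that it was not particular to the pair. Over all listed genes, the median log fold change was also larger in B, at 0.40 against 0.33 in A. Nqo1, a quinone reductase, was listed for cluster B at 0.31 with an adjusted p of 1 by the authors' deposited table. Cat was listed for cluster C at 0.79 and Gpx1 for cluster D at 0.27, the listing of Gpx1 without an adjusted p under 0.05. Of the 19 genes of this list, Blvrb included, 2 were listed toward MMP-low and 0 toward MMP-high. Over all genes, listing called 5.86% and 5.67%.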
